A study of Mus musculus with 38 samples.

Results

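The mouse mitochondrial genome encodes 13 proteins. The 6 genes described here are those that encode subunits of respiratory complexes III, IV and V: mt-Cytb, mt-Co1, mt-Co2, mt-Co3, mt-Atp6 and mt-Atp8. They were taken by name from the 22375 genes with a coding sequence (CDS) in the count tables, and the other 7 coding genes of this genome, all subunits of complex I, served for comparison. All 6 passed the filter on low counts in every fit. Ribosome footprints, which are the stretches of RNA left after nuclease digestion around a ribosome, were counted in 38 libraries of 14 groups.

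The libraries came from primary cortical neurons of mice infected with a lentivirus for a biotin ligase. TurboID-PSD95 carries elements of the postsynaptic protein PSD95 that bring it to dendrites, and Pan-TurboID has no such elements. Biotin was given for 30 min and cycloheximide (Chx) for 2 min according to the labels (the study's methods give a shorter biotin time for DHPG). By those methods the 2 min of Chx came before biotin was added, and Chx was also in the rinse and lysis buffers. Each culture gave an input library and a streptavidin pulldown library, by which the study isolated biotinylated ribosomes. No library without biotin is among those analysed here, so binding to streptavidin without added biotin was not measured. Each ligase was used at rest and with depolarization by KCl (55 mM, 1 h, after silencing with TTX and DL-AP5; 4 kinds of culture, 3 replicates each, 24 libraries). TurboID-PSD95 was also used with DHPG (100 µM, 10 min, after the same silencing), which activates group I metabotropic glutamate receptors (3 cultures, 6 libraries). It was used as well with 20 nM siRNA against the initiation factor eIF4G2 for 72 h, in resting neurons and in neurons silenced and treated with KCl in the same way (2 cultures each, 8 libraries). The 3 experiments are separate, and DHPG has no resting group and the siRNA no control siRNA among the libraries analysed here. Levels are therefore set side by side across experiments and not tested. By the study's methods, KCl or DHPG medium was replaced with fresh medium for the biotin step before harvest. After KCl, that fresh medium held TTX and DL-AP5 again. Whether the resting cultures were silenced is not given in the labels. If they were not, KCl and silencing cannot be told apart in KCl against rest.

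As background, these 6 proteins are made inside mitochondria. Mitochondrial DNA is transcribed into long polycistronic RNAs that are cut into mRNAs, tRNAs and rRNAs, and the mRNAs are translated in the matrix by mitochondrial ribosomes, which differ from those of the cytosol and are not blocked by cycloheximide. The products are inserted into the inner membrane and joined there with subunits that are encoded in the nucleus and imported. Cytochrome b (mt-Cytb) is the catalytic membrane subunit of complex III. mt-Co1, mt-Co2 and mt-Co3 form the core of cytochrome c oxidase, complex IV. mt-Atp6 and mt-Atp8 belong to the membrane part of ATP synthase, complex V, and are read from 1 bicistronic mRNA with overlapping reading frames.

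In mm10, all 6 genes lie on the plus strand of the mitochondrial chromosome, each as a single exon. The CDS of mt-Co1 spans chrM:5328-6872 (1545 nt), that of mt-Co2 chrM:7013-7696 (684 nt), that of mt-Atp8 chrM:7766-7969 (204 nt), that of mt-Atp6 chrM:7927-8607 (681 nt), that of mt-Co3 chrM:8607-9390 (784 nt) and that of mt-Cytb chrM:14145-15288 (1144 nt). The last 43 nt of mt-Atp8 are also the first 43 nt of mt-Atp6, which is 21.1% of the former and 6.31% of the latter. A footprint whose 5′ end lies there was counted in both genes. The junctions are shown because they limit how far neighbouring genes can be told apart. The capitals mark, in order, the start codon of mt-Atp6 inside mt-Atp8 (chrM:7915-7944), the stop codon of mt-Atp8 inside mt-Atp6 (chrM:7952-7981), the stop codon of mt-Atp6 run into the start codon of mt-Co3 with 1 shared base (chrM:8593-8622), and the single base left at the ends of mt-Co3 (chrM:9361-9390) and mt-Cytb (chrM:15259-15288), whose stop codons are completed by polyadenylation. Sequences are from RefSeq's GRCm38.p6.
mt-Atp6 start: ttgagaattaaaATGaacgaaaatctattt
mt-Atp8 stop: tcattaccccaacaaTAAtaggattcccaa
mt-Atp6 stop and mt-Co3 start: catgataatacaTAATGacccaccaaactc
mt-Co3 end: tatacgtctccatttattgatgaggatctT
mt-Cytb end: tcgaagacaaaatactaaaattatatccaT

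Nuclear copies of mitochondrial DNA share sequence with some of these genes. On chromosome 1, the minus strand holds full-length copies of mt-Co2, mt-Atp8, mt-Atp6 and mt-Co3 with 100% identity (mt-Co2 chr1:24614882-24615565, mt-Atp8 chr1:24614609-24614812, mt-Atp6 chr1:24613971-24614651 and mt-Co3 chr1:24613188-24613971) and a copy of the last 483 nt of mt-Co1 with 99.8% identity (mt-Co1 chr1:24615706-24616188). On chromosome 2, the minus strand holds a full-length copy of mt-Co1 with 97.6% identity (chr2:22588103-22589647). Beside it lies a full-length copy of mt-Co2 with 95.9% identity (chr2:22587291-22587962). Neither was counted here, so the ambiguity of mt-Co1 may reach beyond its last 483 nt. The best copy of mt-Cytb outside the mitochondrial genome, on chromosome 4, is 92.9% identical. The deposited tables list the chromosome 1 copies as the pseudogenes Gm28661, Gm10925, Gm28437 and Gm29216 and give them counts. Of the counts of gene and copy together, the copy held 22.4% to 34.3% for mt-Co2, 23.0% to 38.6% for mt-Atp6, 25.4% to 49.9% for mt-Co3 and 7.32% to 12.9% for mt-Co1 in the 38 libraries. Identical footprints of gene and copy cannot be told apart, and the levels given here leave out the counts of the copy. The median share of the copy was close in inputs and pulldowns (28.6% and 25.6% for mt-Co2, 27.2% and 28.0% for mt-Atp6, 30.0% and 30.8% for mt-Co3, 9.32% and 9.30% for mt-Co1). Adding the copies' counts left the number of called members as it was in each of edgeR's main fits, which are without pairing. Apart from the ratios below, the other fits and settings were not repeated with the copies. No copy of mt-Atp8 is listed in the tables.

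Libraries held 2047169 to 14636019 CDS counts. Eif4g2, the siRNA's target, had 284 CPM (counts scaled to 1e6 CDS counts) in the resting inputs with siRNA and 570 CPM (±10.4 SD, n = 3) in resting TurboID-PSD95 inputs of the KCl experiment. DHPG inputs, which had no siRNA, held 452 CPM (±6.41 SD, n = 3), so part of this gap also lies between experiments. Dlg4, which encodes PSD95, reached 338 to 5224 CPM in the 13 TurboID-PSD95 pulldowns and 15.7 to 59.8 CPM in the 12 Pan-TurboID libraries. The 7 neuronal markers summed to 5663 to 9696 CPM in inputs, the 6 astrocyte markers to 90.7 to 880.4 CPM (lowest in the 3 DHPG inputs, 90.7 to 92.0 CPM) and the 6 microglial markers to at most 20.9 CPM. All 6 immediate early genes rose with KCl in both fractions of both ligases and with siRNA. DHPG has no resting group here and so no such check. Its inputs held mean CPM of 39.5 for Fos, 87.8 for Egr1, 8.88 for Npas4 and 7.79 for Nr4a1. Resting TurboID-PSD95 inputs of the KCl experiment held 335, 204, 67.3 and 113. For Arc and Egr2 the DHPG means were 32.2 and 12.2 CPM, against 14.2 and 8.95 CPM. These gaps between experiments were not tested. Replicate libraries of the DHPG inputs differed far less from each other (chi-square per degree of freedom 1.48 to 1.90 over genes) than those of the KCl experiment (8.61 to 47.5). The siRNA replicates were also closer (2.81 to 4.65), and the DHPG pulldowns ran from 2.83 to 8.88. The study's methods call the replicates biological, but the labels do not say what separates them. The p-values measure the spread between these libraries, part of which may be technical.

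The 6 genes were abundant and uneven. Together they held 0.0967% to 1.39% of the CDS counts of a library, lowest in a resting TurboID-PSD95 input and highest in a KCl pulldown with siRNA. On a scale per CDS length and without the copies' counts, mt-Co1 was the densest of the 6 in 38 of 38 libraries. It held 27.9% to 36.3% of their summed density in inputs and 34.0% to 45.9% in pulldowns. The copy took a larger share for mt-Co3, mt-Co2 and mt-Atp6 than for mt-Co1, and the order with the copies added was not tested. mt-Cytb held 16.9% to 20.6% of this density in inputs and 15.5% to 21.1% in pulldowns. mt-Co3 held 11.4% to 20.9% and 13.1% to 20.8%, mt-Co2 11.5% to 16.0% and 8.50% to 19.8%, and mt-Atp6 8.45% to 14.3% and 9.36% to 12.8%. mt-Atp8 held 4.78% to 13.1% in inputs and 1.56% to 5.03% in pulldowns, so that its ranges overlapped only slightly. It was the least dense of the 6 in 19 of 19 pulldowns and in 15 of 19 inputs. By density over all 22375 genes, mt-Co1 had a median rank of 130 in inputs and 17 in pulldowns, and mt-Atp8 one of 1008 and 1082.

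For mt-Co1, the levels in replicates 1, 2 and 3 were 506, 1182 and 717 CPM in resting TurboID-PSD95 inputs and 1381, 2604 and 1874 CPM in their pulldowns. With KCl they were 1386, 685 and 848 CPM in TurboID-PSD95 inputs and 2205, 1499.6 and 2073 CPM in pulldowns. In resting Pan-TurboID cultures the inputs held 696, 1394 and 852 CPM and the pulldowns 1503, 2529.8 and 1713 CPM. The pulldown was above the input of its own culture in each of these, and the inputs and pulldowns of these 3 kinds of culture did not overlap. With KCl, Pan-TurboID inputs held 2719.8, 2798 and 771 CPM and pulldowns 4073, 4257 and 1948 CPM, so that replicate 3 lay below the other two in both fractions and the fractions overlapped. DHPG inputs held 2074, 1948 and 2157 CPM and pulldowns 5521, 5109 and 3683 CPM. With siRNA, resting inputs held 767 and 736 CPM, resting pulldowns 3695 and 2967 CPM, KCl inputs 2008 and 1888 CPM and KCl pulldowns 7541 and 7417 CPM. The groups of DHPG and of the siRNA did not overlap between input and pulldown.

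mt-Cytb, the single gene of complex III here, followed the same pattern at lower counts. Resting TurboID-PSD95 inputs held 182, 463 and 292 CPM and pulldowns 427, 849 and 602 CPM, and resting Pan-TurboID inputs held 264, 593 and 362 CPM and pulldowns 496, 846 and 580.5 CPM. Inputs and pulldowns overlapped in both kinds of culture. With siRNA it went from 354 and 318 CPM in resting inputs to 1262 and 1289.8 CPM in pulldowns, and with KCl from 919 and 866 to 2477 and 2681 CPM. These siRNA groups did not overlap.

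mt-Atp8, the small subunit of ATP synthase, held far fewer counts and was the exception. Resting TurboID-PSD95 inputs held 19.4, 33.2 and 28.6 CPM and pulldowns 10.9, 28.6 and 24.9 CPM, which overlap. With KCl these were 50.7, 20.6 and 15.8 CPM and 12.2, 15.7 and 14.9 CPM, so that the first input stood apart. Resting Pan-TurboID inputs held 30.9, 39.2 and 33.5 CPM and pulldowns 15.3, 19.6 and 18.8 CPM, without overlap. With KCl, Pan-TurboID inputs spread widely, at 57.4, 169 and 17.1 CPM, and so did pulldowns, at 30.8, 67.1 and 14.2 CPM.

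Ordered by the group mean of mt-Co1, the KCl pulldowns with siRNA came first (7479 CPM ± 88.1 SD, n = 2), followed by DHPG pulldowns (4771 ± 964, n = 3). Resting inputs with siRNA (751 ± 22.0, n = 2) came last. Of the 13 neighbours in this order, 10 had overlapping ranges. The gaps without overlap followed the KCl pulldowns with siRNA, the resting pulldowns with siRNA and the resting Pan-TurboID pulldowns. Group means spanned 9.95-fold for mt-Co1, 8.26-fold for mt-Cytb, 5.23-fold for mt-Co2, 11.5-fold for mt-Co3, 8.79-fold for mt-Atp6 and 6.70-fold for mt-Atp8. For mt-Co2 and mt-Atp8, each of the 13 neighbours overlapped.

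**Figure D1:**
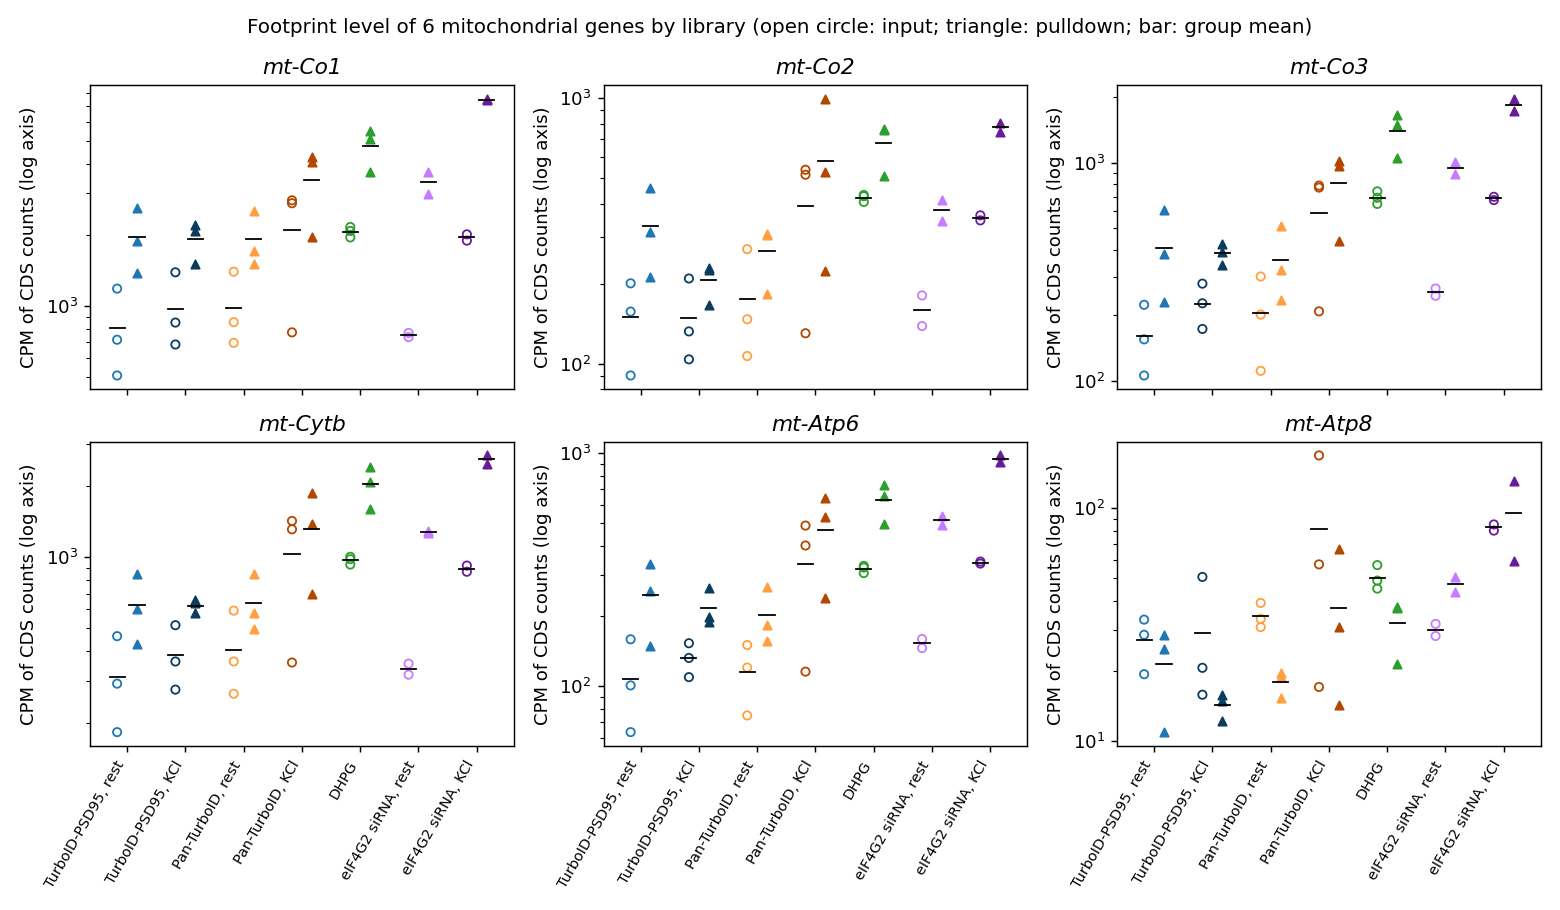
Level of each of the 6 genes (CPM of CDS counts, log axis) in each of the 38 libraries, by condition, with open circles for inputs, triangles for pulldowns and black bars for group means. For mt-Co1 the pulldowns of DHPG and siRNA cultures lie above all their inputs, from 2967 to 7541 CPM. For mt-Atp8 the resting Pan-TurboID and DHPG pulldowns lie below their inputs. With the trend with CDS length removed, mt-Atp8 was higher in the pulldown past the threshold with DHPG, and did not pass in resting Pan-TurboID. The share of all genes called higher in these fits is not given here.

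The question of what the pulldown of each ligase holds, relative to the whole culture, was asked for each kind of culture. Footprints of 5 of the 6 genes took a larger share of the pulldown than of the input of the same culture in 19 of 19 cultures. The log2 difference in CPM ran from 0.58 to 2.27 (median 1.29) for mt-Co1, from 0.28 to 1.93 (1.12) for mt-Co3 and from 0.38 to 1.88 (1.06) for mt-Atp6. It ran from 0.07 to 2.02 (0.95) for mt-Cytb and from 0.03 to 1.55 (0.84) for mt-Co2. mt-Atp8, the shortest, went the other way: its pulldown lay below the input in 16 of 19 cultures. Its log2 differences ran from -2.06 to 0.85 (median -0.53), and the 3 exceptions were siRNA cultures. For single genes, as opposed to the ratios between genes below, the trend of counts with CDS length was removed in group fits only. The values of mt-Atp8 were then above 0, past the threshold only with DHPG and siRNA. For those fits the share of all genes called higher is not given here. CPM values are shares of a library, so a rise can also come from a fall of other footprints.

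**Figure D2:**
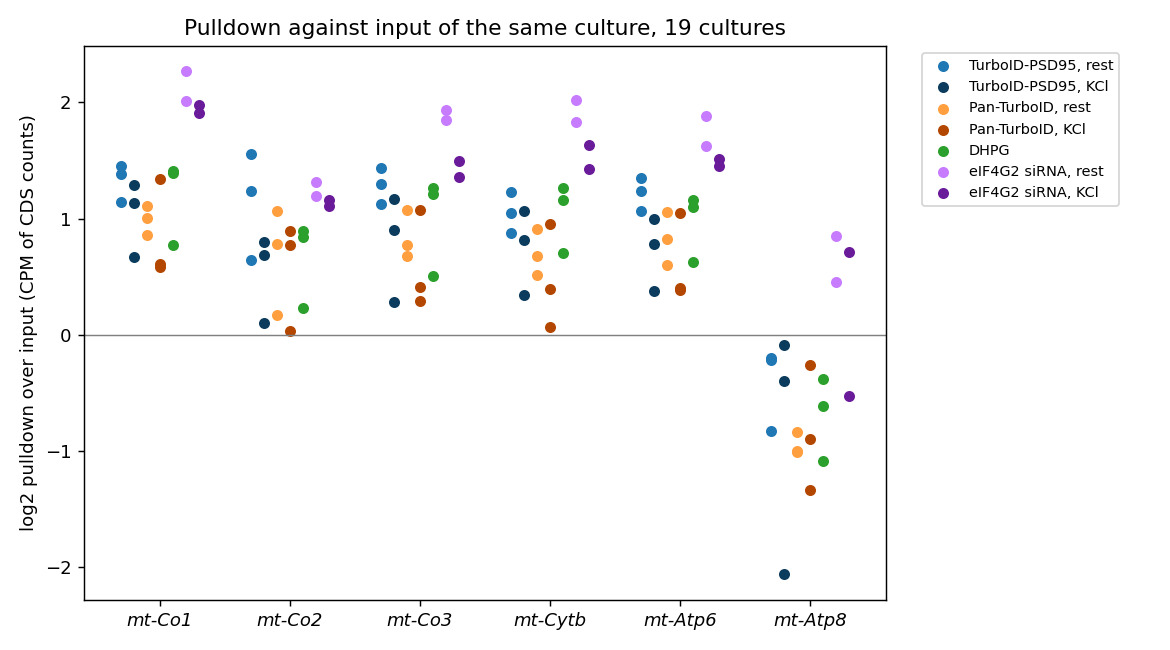
log2 ratio of pulldown to input (CPM of CDS counts) for each of the 19 cultures, coloured by condition, with 0 as no difference. Every point of mt-Co1, mt-Co2, mt-Co3, mt-Cytb and mt-Atp6 lies above 0, and 16 of 19 points of mt-Atp8 lie below it. For single genes, the trend of counts with CDS length was removed for groups and not for single cultures. The group values of mt-Atp8 were then above 0, past the threshold only with DHPG and siRNA. For these fits the share of all genes called higher is not given here.

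In the KCl experiment, the spread between cultures was large next to these differences. In resting TurboID-PSD95 neurons, edgeR's test without pairing called only mt-Co1 higher (log2 fold change 1.32 ± 0.48 SE, adjusted p = 0.0479) among the 6, where 11.5% of 13003 genes tested were higher and 13.5% lower, and that call was lost without any 1 of the 3 replicate numbers (adjusted p of 0.160, 0.0841 and 0.177 without numbers 1, 2 and 3). It called none of the 6 in TurboID-PSD95 with KCl (8.21% of genes higher, 4.38% lower), in resting Pan-TurboID (4.52% and 5.01%) or in Pan-TurboID with KCl (5.13% and 3.62%). With the length trend removed, mt-Co1 did not pass in resting TurboID-PSD95 neurons (1.22, edgeR adjusted p = 0.110) and mt-Atp6 did (1.77, edgeR adjusted p = 0.0497). The share of all genes called higher in that fit is not given here. At an unadjusted p under 0.05 the 4 comparisons held 4, 1, 1 and 0 of the 6 in the order given, where 38.4%, 31.3%, 29.3% and 29.3% of all genes lay under it. DESeq2 called 3, 0, 0 and 0, all higher, where it called 15.7%, 12%, 9.04% and 10.4% of genes higher. Input and pulldown of a culture come from 1 lysate, and with the culture as a block the standard error of mt-Co1 was 0.13 in place of 0.48.

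With that block, 5 of the 6 were higher in each of the 4 kinds of culture. In resting TurboID-PSD95 neurons (19.3% of genes higher, 22.6% lower) the log2 fold changes were 1.36 ± 0.13 for mt-Co1, 1.32 ± 0.15 for mt-Co3, 1.25 ± 0.14 for mt-Atp6, 1.18 ± 0.19 for mt-Co2 and 1.08 ± 0.14 for mt-Cytb, with adjusted p from 6.16e-08 to 5.78e-05. mt-Atp8 was at -0.39 ± 0.27 and did not pass (adjusted p = 0.261). In TurboID-PSD95 neurons with KCl (17.2% higher, 17.4% lower) the 5 ran from 0.58 (mt-Co2) to 1.07 (mt-Co1). mt-Atp8 was lower there, at -0.72 ± 0.28 (adjusted p = 0.0494). In resting Pan-TurboID neurons (15.4% and 17.5%) the 5 ran from 0.72 (mt-Co2) to 1.04 (mt-Co1) and mt-Atp8 was lower by edgeR at -0.90 ± 0.26 (adjusted p = 0.00876). In Pan-TurboID neurons with KCl (16.3% and 15.6%) the 5 ran from 0.52 (mt-Cytb) to 0.89 (mt-Co1), and mt-Atp8 was lower by edgeR at -0.84 ± 0.26 (adjusted p = 0.0155). These calls of mt-Atp8 were made with the length trend left in; without it, and without pairing, its values in these 3 kinds of culture were 0.12, 0.22 and 0.08.

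In DHPG-treated neurons 5 of the 6 were higher in the pulldown and mt-Atp8 was lower, in a comparison where 40.5% of 12257 genes were called higher and 39.3% lower. The edgeR log2 fold changes were 1.42 ± 0.14 for mt-Co1, 1.28 ± 0.12 for mt-Cytb, 1.23 ± 0.16 for mt-Co3, 1.19 ± 0.11 for mt-Atp6 and 0.89 ± 0.14 for mt-Co2, with adjusted p from 2.95e-07 to 0.000118. mt-Atp8 held 57.0, 48.9 and 45.2 CPM in the inputs and 37.2, 37.7 and 21.4 CPM in the pulldowns, without overlap. Its edgeR log2 fold change of -0.46 ± 0.18 (adjusted p = 0.0315) turned to 1.16 ± 0.23 (adjusted p = 0.00109) when each library's trend of counts with CDS length was removed, and DESeq2 called 5 higher and none lower (37.4% and 38.4% of genes). How many of all genes were higher with that trend removed is not given here.

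With siRNA against eIF4G2, the edgeR log2 fold changes of the 5 longer genes were above those of the other experiments. Single cultures overlapped: mt-Co2 was at 1.55 in replicate 3 of resting TurboID-PSD95 neurons and at 1.10 to 1.32 in the siRNA cultures. In resting neurons all 6 were higher in the pulldown (22.1% of 12223 genes were higher and 23.4% lower). The edgeR log2 fold changes were 2.26 ± 0.08 for mt-Co1, 2.04 ± 0.08 for mt-Cytb, 2.01 ± 0.09 for mt-Co3, 1.87 ± 0.09 for mt-Atp6 and 1.37 ± 0.11 for mt-Co2, with adjusted p from 4.11e-17 to 3.71e-10. mt-Atp8 rose less (0.76 ± 0.25, adjusted p = 0.0145), from 31.9 and 28.3 CPM to 43.7 and 50.8 CPM, and this call was lost without replicate 2 of the input (adjusted p = 0.0982) or of the pulldown (adjusted p = 0.0758). With KCl, 5 of the 6 were higher (24.0% of genes higher, 24.8% lower), from 1.23 ± 0.11 for mt-Co2 to 2.04 ± 0.08 for mt-Co1. mt-Atp8 held 85.3 and 80.2 CPM in these inputs and 59.2 and 132 CPM in the pulldowns, which overlap, and did not pass (0.29 ± 0.24, edgeR adjusted p = 0.330), but stood at 1.99 ± 0.23 and passed with the length trend removed (edgeR adjusted p = 1.65e-07). Without replicate 1 of that pulldown it passed by edgeR (0.76, adjusted p = 0.00285), and without replicate 2 it stood at -0.37 (adjusted p = 0.176). Levels of the siRNA and KCl experiments share no libraries, and their difference was not tested. For the siRNA fits with the length trend removed, the share of all genes called higher is not given here.

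With DHPG and in resting neurons with siRNA, longer genes among the 6 and the complex I genes of the same genome tended to lie higher. Choosing the 6 by name did not use this tendency, and it was not tested. In resting TurboID-PSD95 neurons the 5 longer genes showed no such rise. From the shortest to the longest of them, the values without pairing were 1.23 (mt-Atp6), 1.17 (mt-Co2), 1.37 (mt-Co3), 1.04 (mt-Cytb) and 1.32 (mt-Co1). In DHPG-treated neurons the log2 pulldown over input was -0.46 for mt-Atp8 (204 nt), 0.41 for mt-Nd4l (297 nt), 0.33 for mt-Nd3 (348 nt) and 0.89 for mt-Nd6 (519 nt), and 1.42 for mt-Co1 (1545 nt) and 1.38 for mt-Nd5 (1824 nt). The order was not strict: mt-Nd4 (1378 nt) was the highest of the 13 coding genes at 1.59, and mt-Co2 (684 nt, 0.89) lay below mt-Atp6 (681 nt, 1.19). In resting neurons with siRNA the same 4 short genes were at 0.76, 0.87, 1.03 and 1.46 and mt-Co1 and mt-Nd5 at 2.26 and 2.34, below mt-Nd2 (1038 nt, 2.47) and mt-Nd4 (2.56). Within a length class, the 6 genes lay above the nuclear-encoded subunits of complexes III, IV and V in 4 of the 7 comparisons. With DHPG, 21 nuclear subunits with a CDS of 150 to 350 nt had log2 values from -2.23 to -1.48, where mt-Atp8 had -0.46. The 9 nuclear subunits of 600 to 1600 nt had values from -1.78 to 0.86, below the lowest of the other 5 genes (0.89, mt-Co2). In resting neurons with siRNA, the classes ran from -1.93 to -0.73 (22 subunits) and from -1.66 to 0.39 (9 subunits), against 0.76 for mt-Atp8 and 1.37 to 2.26 for the others. Without pairing in resting TurboID-PSD95 neurons, they ran from -1.53 to -0.92 and from -1.09 to 0.39, against -0.30 and 1.04 to 1.37. The fourth was KCl with siRNA, where they ran from -3.22 to -0.87 and from -1.91 to 0.64, against 0.29 for mt-Atp8 and at least 1.23 for the others. In the other 3 comparisons mt-Atp8 lay inside the range of the short nuclear subunits, at -0.94 (range -1.64 to -0.55) in TurboID-PSD95 with KCl, -0.90 (-1.32 to -0.60) in resting Pan-TurboID and -1.04 (-1.14 to -0.34) in Pan-TurboID with KCl. In the last, mt-Cytb (0.39) also lay just under the highest nuclear subunit of 600 to 1600 nt (0.40). After removal of each library's length trend, mt-Atp8 stood at 1.16 with DHPG, at 2.13 in resting neurons with siRNA and at 0.96 in resting TurboID-PSD95 neurons, above 0 in each, and passed in the first 2 (edgeR adjusted p = 0.00109 and 1.2e-07) but not in the last (0.471). With KCl and siRNA it stood at 1.99 and passed (edgeR adjusted p = 1.65e-07). In TurboID-PSD95 with KCl and in both kinds of Pan-TurboID culture it stood at 0.08 to 0.22 and did not pass. As the share of all genes higher with the trend removed is not given here, these passes cannot be set beside it. The lower share of mt-Atp8 in pulldowns depends on how CDS length is treated. The other 5 genes were above 0 with and without the trend in all 7 comparisons, each taken against inputs of the same ligase. The alternatives tried included the mean of both ligases' inputs, by which the study divides. Over them, values in TurboID-PSD95 with KCl fell to -0.22 for mt-Co2 and -0.0064 for mt-Cytb. The lowest were 0.056 for mt-Atp6, 0.078 for mt-Co3 and 0.44 for mt-Co1.

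**Figure D3:**
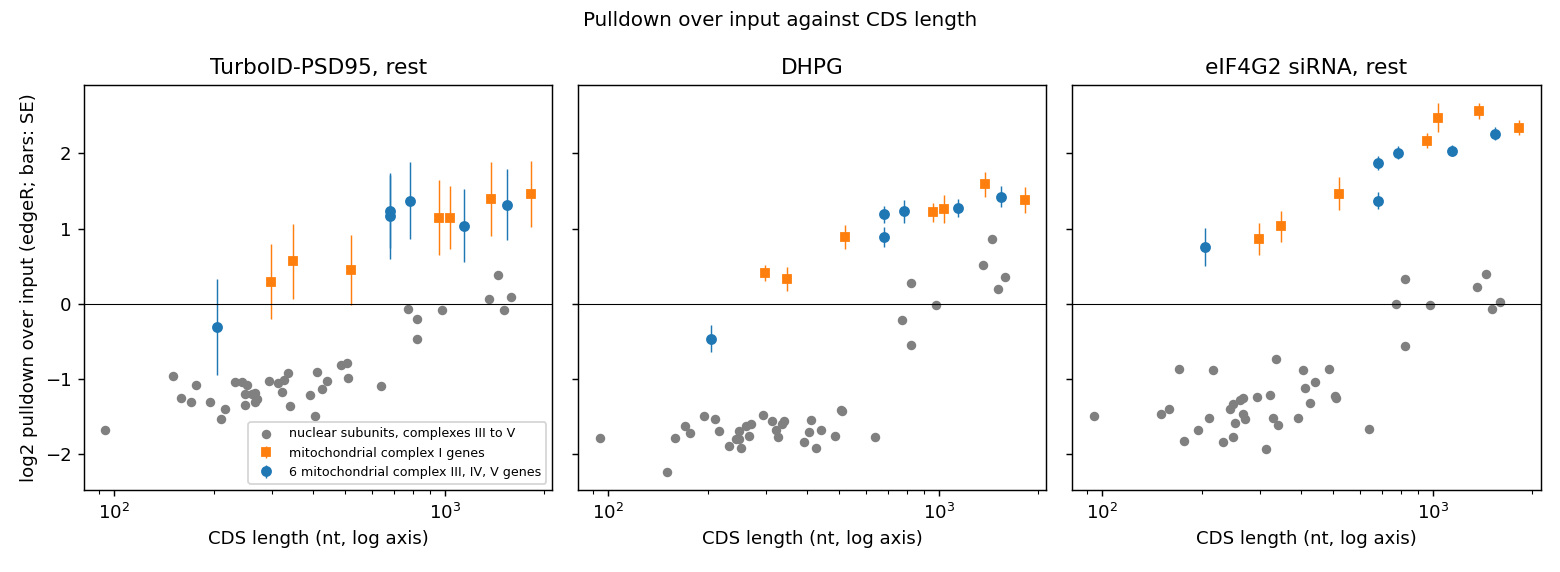
log2 pulldown over input (edgeR without pairing, vertical axis, bars for SE) against CDS length (nt, log axis) in resting TurboID-PSD95, DHPG and resting siRNA neurons, for the 6 genes (blue), the 7 mitochondrial complex I genes (orange) and nuclear subunits of complexes III to V (grey). With DHPG and in resting siRNA neurons, longer genes tend to lie higher in each set, which was not tested. In resting TurboID-PSD95 neurons the 6 genes show no such rise beyond the low value of mt-Atp8. There mt-Cytb (1.04) lies below the shorter mt-Atp6 (1.23). In these 3 panels the 6 genes lie above nuclear subunits of like length. With DHPG, mt-Atp8 is at -0.46 and nuclear subunits of 150 to 350 nt reach at most -1.48.

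Ratios between the 6 genes within a library do not depend on how libraries are scaled, but those between genes of unlike length depend on the trend of counts with CDS length. They were tested on counts per CDS length over the KCl experiment. Relative to mt-Atp6 on the same mRNA, mt-Atp8 was lower in the pulldown in 12 of 12 cultures (mean log2 difference -1.60 ± 0.42 SD, exact two-sided sign-flip permutation p = 0.000488, the smallest that sign flips of 12 cultures allow, adjusted p = 0.00293 over 12 tests). With each library's length trend removed, the difference shrank to -0.90 ± 0.36 SD and was still lower in 12 of 12 cultures (exact permutation adjusted p = 0.00293). In inputs of resting Pan-TurboID neurons the ratio was near 1 (1.04), and in their pulldowns it was 0.30. The same held in the other experiments as a description: mt-Atp8 to mt-Atp6 fell from 0.52 in DHPG inputs to 0.17 in pulldowns, and was lower in 19 of 19 cultures in all, by log2 0.78 to 2.44. Counts per mt-Atp8 ran from 25 to 1425, so counting error weighs more on this ratio than on those of the longer genes. The 43 shared nt add the same footprints to both genes. The sign flips treat the 12 cultures as independent, but 4 cultures share each replicate number, and by the study's methods cultures of a number were handled together. Sign flips of the 3 numbers could not give a p under 0.25. The mean difference was -1.97, -1.50 and -1.34 in numbers 1, 2 and 3.

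Relative to mt-Co1, mt-Cytb was lower in pulldowns of 12 of 12 cultures (mean log2 difference -0.31 ± 0.12 SD, exact permutation p = 0.000488, adjusted p = 0.00293), and in 11 of 12 with the length trend removed (-0.14 ± 0.12 SD, exact permutation adjusted p = 0.00781). mt-Co2 was lower in 9 of 12 (-0.32 ± 0.33 SD, exact permutation p = 0.00977, adjusted p = 0.0391) and mt-Co3 in 10 of 12 (-0.17 ± 0.20 SD, exact permutation p = 0.0186, adjusted p = 0.0445). Both directions turned when the length trend was removed: mt-Co2 was then higher in 8 of 12 cultures (0.25 ± 0.37 SD, exact permutation adjusted p = 0.0686) and mt-Co3 in 12 of 12 (0.29 ± 0.19 SD, exact permutation adjusted p = 0.00293). By replicate number 1, 2 and 3, with 4 cultures each, the mean was -0.32, -0.22 and -0.38 for mt-Cytb, -0.20, -0.55 and -0.21 for mt-Co2 and -0.26, 0.01 and -0.27 for mt-Co3, so that mt-Co3 was not lower in number 2. The test of mt-Co2 missed the threshold without any 1 replicate number (adjusted p = 0.125, 0.250 and 0.0938 without numbers 1, 2 and 3), and that of mt-Co3 did so without number 1 or 3 (adjusted p = 0.222 and 0.344) or with the copies' counts added (-0.13, adjusted p = 0.0857). KCl against rest gave 1 ratio past the threshold among 8: mt-Co3 to mt-Co1 in inputs was higher by log2 0.35 (exact permutation p = 0.015, 400 relabellings within ligases, adjusted p = 0.0445). It missed the threshold with the copies added (0.30, adjusted p = 0.060) and with the length trend removed (0.15, adjusted p = 0.320). Without replicate number 1, 2 or 3 it was 0.32 to 0.39, and the relabellings left cannot give a p under 0.0556. The relabelling takes no account of replicate numbers. Between KCl-treated and resting inputs of the same number, mt-Co3 to mt-Co1 was higher in 5 of 6 pairs (log2 -0.05 to 0.86, exact permutation p = 0.0625 by sign flips, adjusted p = 0.125). mt-Cytb to mt-Co1 was higher in 6 of 6 (0.04 to 0.34, exact permutation p = 0.0312, the smallest that 6 pairs allow, adjusted p = 0.075), by a mean of 0.15 that fell to 0.06 in the test with the length trend removed. In the 8 libraries with siRNA, mt-Co3 to mt-Co1 was 0.67 in resting inputs and 0.70 in KCl inputs, and 0.56 in resting pulldowns and 0.49 in KCl pulldowns. It was lower with KCl in both pairs of pulldowns (log2 -0.26 and -0.17) and in 1 of 2 pairs of inputs (-0.04 and 0.15).

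**Figure D4:**
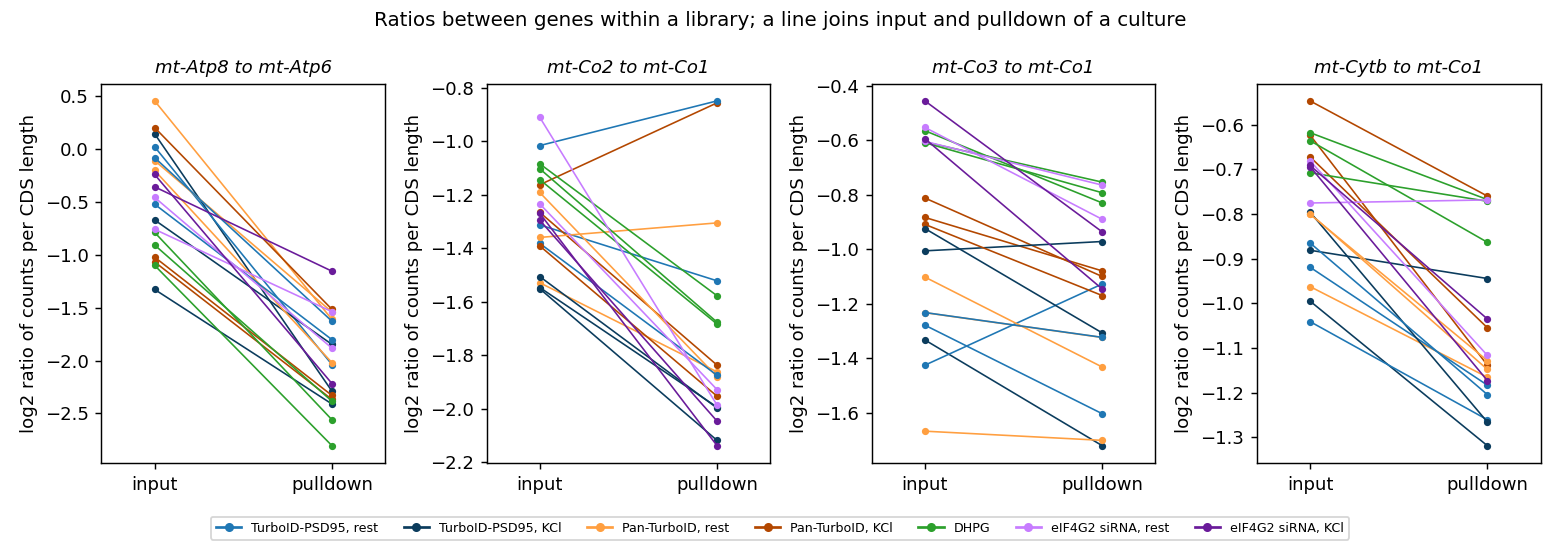
log2 ratio of counts per CDS length between pairs of the 6 genes within each library, inputs on the left and pulldowns on the right, with a line for each of the 19 cultures, coloured by condition. The mt-Atp8 to mt-Atp6 lines fall in every culture by 0.78 to 2.44, a fall that was smaller with the trend with CDS length removed, and the mt-Cytb to mt-Co1 lines fall in 18 of 19. The lines of mt-Co2 and mt-Co3 to mt-Co1 mostly fall, a direction that turned in the KCl experiment when the trend with CDS length was removed.

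Whether the pulldown of TurboID-PSD95 differed from that of Pan-TurboID was tested as a difference of the pulldown-over-input values. None of the 6 passed (0.00769% of 13003 genes did, 1 gene, in either direction), none did at an unadjusted p under 0.05, and DESeq2 called none. With the culture as a block the differences ran from 0.21 (mt-Co2) to 0.31 (mt-Co3 and mt-Atp8), all above 0, with adjusted p from 0.949 to 0.975, and 2 of the 6 had an unadjusted p under 0.05 (5.14% of genes did). The standard error for mt-Co1 was 0.13 at a difference of 0.25. The pulldown over input of KCl-treated minus resting neurons did not pass for any of the 6 with TurboID-PSD95 or with Pan-TurboID (0% of genes passed in each), none did at an unadjusted p under 0.05, and DESeq2 called none. With the culture as a block none passed either, but all 6 were below 0 with TurboID-PSD95. There 3 of them had an unadjusted p under 0.05 (4.9% of genes did): mt-Atp6 (-0.47 ± 0.20), mt-Co3 (-0.48 ± 0.21) and mt-Co2 (-0.60 ± 0.27), each with an edgeR adjusted p of 0.973. With Pan-TurboID none of the 6 had one under the block. With siRNA, the difference of KCl minus rest was lower for mt-Co3 (-0.48 ± 0.12, edgeR adjusted p = 0.0219) and mt-Cytb (-0.40 ± 0.11, edgeR adjusted p = 0.0319), where 2.27% of 12223 genes were lower. Both calls were lost without replicate 1 or 2 of the resting inputs, 1 or 2 of the KCl inputs, or 1 of the KCl pulldowns (edgeR adjusted p from 0.0642 to 0.337). That of mt-Co3 was also lost without replicate 1 of the resting pulldowns (0.0658), and that of mt-Cytb without replicate 2 (0.0709).

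KCl against rest was the next question. With siRNA, all 6 genes rose in inputs (8.91% of 12223 genes did) and in pulldowns (10.2%). In inputs the edgeR log2 fold changes were 1.48 ± 0.24 for mt-Atp8, 1.44 ± 0.09 for mt-Co3, 1.42 ± 0.08 for mt-Cytb, 1.39 ± 0.08 for mt-Co1, 1.17 ± 0.11 for mt-Co2 and 1.16 ± 0.09 for mt-Atp6. In pulldowns they ran from 0.88 ± 0.09 for mt-Atp6 to 1.17 ± 0.08 for mt-Co1. mt-Atp8 in pulldowns (1.01 ± 0.25, edgeR adjusted p = 0.00360) lost its call without replicate 2 of the KCl pulldowns (0.35, adjusted p = 0.296). Astrocyte markers summed to 535 and 558 CPM in the resting inputs and to 757 and 717 CPM in the KCl inputs with siRNA, and neuronal markers to 8014 and 8223 against 6310.1 and 6142 CPM. Their part in the result was not tested, and in bulk libraries fewer cells of a type and less RNA per cell cannot be told apart. The rise was not limited to coding genes. The mitochondrial rRNA mt-Rnr1 held 334 and 317 CPM in resting inputs and 1188 and 1033 CPM in KCl inputs with siRNA. For mt-Rnr2 these were 4937 and 5318 against 14008 and 13422.5 CPM. These KCl inputs were also shallower, with 3857127 and 2292934 CDS counts against 6464209 and 7856261 at rest. The part of depth in the rise was not tested.

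Without siRNA none of the 6 genes passed, and within a replicate number they mostly moved together. In TurboID-PSD95 none of the 6 passed in inputs (4.26% of 13003 genes did, in either direction) or pulldowns (6.58%). None did at an unadjusted p under 0.05, where 17.6% and 21.7% of all genes lay under it. DESeq2 called none of the 6, and of all genes it called 3.46% higher and 4.53% lower in inputs and 5.54% and 4.61% in pulldowns. Against the resting library of the same number, replicate 1 of the KCl inputs was higher for all 6 (log2 1.21 to 1.50), replicate 2 was lower for all 6 (-0.95 to -0.37) and replicate 3 was mixed (-0.86 to 0.55). In Pan-TurboID the 6 had log2 fold changes of 1.16 to 1.61 in inputs and 0.91 to 1.29 in pulldowns. None passed in inputs (4.05% of genes did) or pulldowns (5.03%), with adjusted p from 0.0736 (mt-Atp6 in inputs) upward, although 6 of the 6 in inputs and 4 in pulldowns had an unadjusted p under 0.05, as did 16.8% and 18.6% of all genes. In Pan-TurboID inputs DESeq2 called 3 of the 6 higher (2.65% of genes) and edgeR's likelihood ratio test 2 (1.74%), and in pulldowns both called none. Replicates 1 and 2 of the KCl inputs lay above rest for all 6 (0.90 to 2.82 and 0.93 to 2.11), and replicate 3 did not (-0.97 to 0.05).

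**Figure D5:**
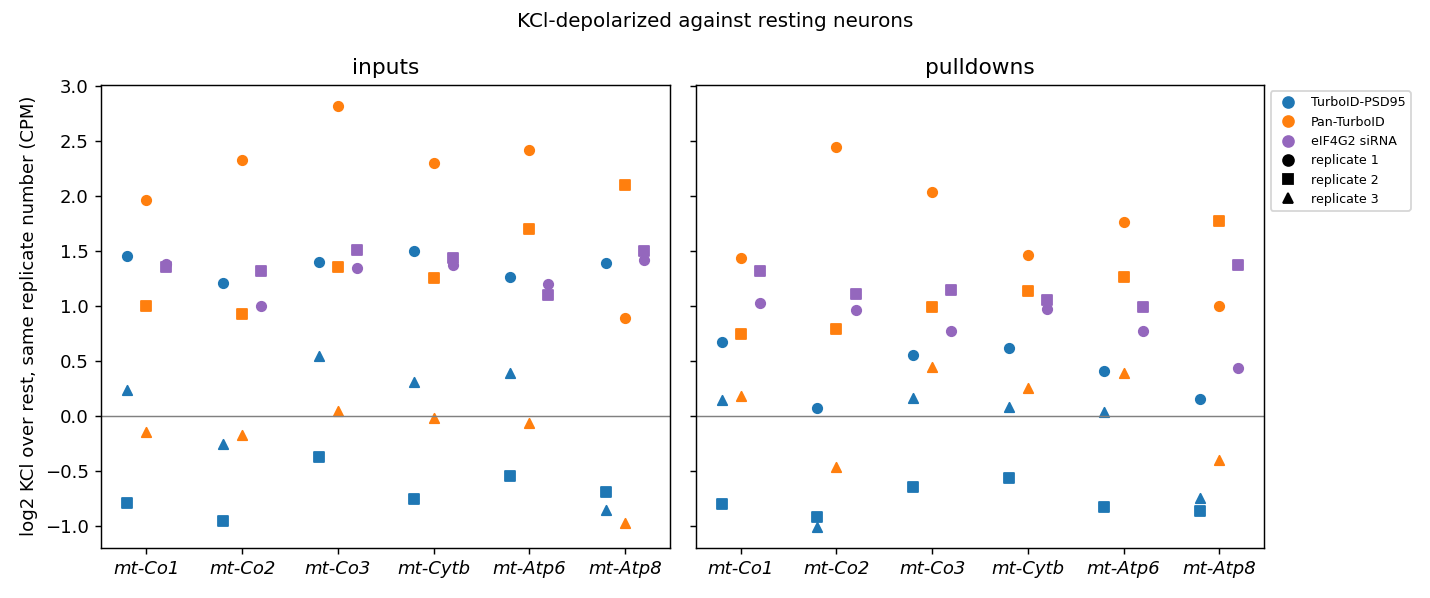
log2 ratio of KCl-treated to resting libraries of the same replicate number (CPM of CDS counts) for each of the 6 genes in inputs (left) and pulldowns (right), with colours for the experiment and symbols for the replicate number. All siRNA points lie above 0 (0.44 to 1.51), while replicate 2 of TurboID-PSD95 lies below 0 and replicates 1 and 2 of Pan-TurboID lie above it.

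Other genes of the same pathway were counted in lists chosen with earlier results of these data known. The 7 mitochondrial genes of complex I were close to the 6 in pulldown over input: all 7 were higher in pulldowns of resting neurons with siRNA (22.1% of all genes were; median log2 2.17, where the median of all genes was -0.01), 6 with DHPG (40.5% of all genes; 1.22 against 0.04) and 2 without pairing in resting TurboID-PSD95 neurons (11.5%; 1.15 against -0.05). With the culture as a block, 5 of 7 were higher in the last (19.3% of all genes). For KCl against rest in Pan-TurboID inputs, where none of the 6 passed, 2 of the 7 did, mt-Nd4l (1.84 ± 0.50, edgeR adjusted p = 0.0417) and mt-Nd6 (1.71 ± 0.47, edgeR adjusted p = 0.0437). The nuclear-encoded partners moved the other way. In resting TurboID-PSD95 pulldowns, 6 of 9 nuclear subunits of complex III, 12 of 14 tested of complex IV and 12 of 17 of complex V were lower and none was higher, where 13.5% of all genes tested were lower. The medians were -0.92, -1.14 and -1.06, and none passed in either direction once the length trend was removed (7.34% of all genes were then lower). Uqcrh and Uqcrq, of complex III, were at -1.26 ± 0.29 and -1.35 ± 0.31. Cox6a1 and Ndufa4, of complex IV, were at -1.36 ± 0.30 and -1.20 ± 0.27. Atp5j2, of ATP synthase, was at -1.18 ± 0.27 and Atpif1, its inhibitor, at -1.17 ± 0.27.

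With DHPG, where 39.3% of all genes were lower and 40.5% higher, 13 of 13 nuclear complex IV subunits tested were lower, with Cox4i1 at -1.43 ± 0.05 and Cox6c at -1.90 ± 0.07. Of complex V, 14 of 17 were lower and 3 higher, among them Atp5g3 (-1.92 ± 0.07) and Atp5b (0.36 ± 0.04), the catalytic beta subunit. Of complex III, 6 of 9 were lower and 2 higher, the core proteins Uqcrc1 (0.86 ± 0.05) and Uqcrc2 (0.51 ± 0.06). The median CDS was 336, 261 and 411 nt in the lists of complexes III, IV and V, 734 nt for the 6 genes and 1101 nt for all genes. With the length trend removed, medians of these lists with DHPG moved to 0.05, -0.32 and -0.13. Then 9 of 13 subunits of complex IV and 7 of 17 of complex V were lower and none of complex III, where 32.3% of all genes were lower, so that the share in complex V was near that of all genes, while the 7 complex I genes stood at 1.56.

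Of 29 genes for mitochondrial translation and assembly, 12 were higher and 11 lower with DHPG, shares close to those of all genes (40.5% and 39.3%). Lrpprc, which stabilizes mitochondrial mRNAs, was at 1.09 ± 0.07 and Gfm1, a mitochondrial elongation factor, at 1.16 ± 0.08. Coa3 and Uqcc2, assembly factors of complexes IV and III, were at -1.51 ± 0.09 and -1.62 ± 0.10. Of 7 genes for mitochondrial transcription and mtDNA, 5 were higher and 2 lower with DHPG, beside these same shares of all genes, and none passed in either direction in resting TurboID-PSD95 neurons without pairing, where 1 was higher with the culture as a block. With KCl and siRNA, nuclear subunits rose in inputs together with the 6 genes: 5 of 9 of complex III, 11 of 14 of complex IV and 12 of 17 of complex V were higher and none lower, where 8.91% of all genes were higher, with medians of 0.41, 0.73 and 0.53. Cox6a1 (0.98 ± 0.12) and Cox6c (1.04 ± 0.14) had the smallest p among those of complex IV. Without siRNA the medians in TurboID-PSD95 inputs were 0.44, 0.58 and 0.61. There 1 of 9, 0 of 14 and 0 of 17 passed, where 4.26% of all genes did in either direction. In Pan-TurboID inputs the medians were 0.32, 0.43 and 0.51, and none passed (4.05% of all genes did).

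Reads of the mitochondrial rRNAs remained in the deposited tables and were higher in pulldowns. Scaled to 1e6 CDS counts, mt-Rnr1, the small ribosomal RNA, was higher in the pulldown than in the input of the same culture in 19 of 19 cultures (log2 1.24 to 4.54, median 2.17). mt-Rnr2, the large one, was higher in 19 of 19 as well (0.27 to 3.00, median 1.55). Their counts are those left after the authors' removal of ribosomal RNA, and their part in the result was not tested.

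Across the 14 group means of log2 CPM, the level of mt-Co3 followed the mean of the 6 genes most closely (Pearson r = 0.991), then mt-Atp6 (0.990), mt-Cytb (0.990), mt-Co2 (0.974) and mt-Co1 (0.957), while mt-Atp8 followed it least (0.627). Each of the 6 is part of that mean, which raises its r. Among the complex I genes of this genome, which are not, r ran from 0.848 (mt-Nd4l) to 0.982 (mt-Nd2). Of 11763 genes outside the mitochondrial genome, Tle3 (0.920), Wdr12 (0.909), Kdm4a (0.904), Lss (0.904) and Kdm5b (0.900) had the highest r. Group means share ligases, experiments and depth, and these values are a description.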

How the data were processed

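Ribosome footprints of 38 libraries were used, with groups and replicate numbers from GEO's labels. According to their methods, the authors trimmed reads, aligned them to mm10 with Rsubread and counted 5′ ends with plastid in CDS and UTR segments of known genes. The authors deposited whole counts per segment, without an offset, and names of the alignments state that ribosomal RNA and duplicates had been taken out. How multi-mapping reads were handled is not given in the sources used here. A 5′ end without an offset lies upstream of the decoded codon, so footprints of the first codons fall outside a CDS, which weighs most on short ones, and removal of duplicates can flatten dense short genes.

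CDS counts were summed for the longest transcript per gene. Of 67238 coding transcripts, 66664 matched GENCODE M21 (22375 genes). edgeR 4.0.16 in R 4.3.3 (quasi-likelihood, robust, TMM, filterByExpr, Benjamini-Hochberg at 0.05) was fitted to 24 libraries of the KCl, 6 of the DHPG and 8 of the siRNA experiment with group means. These tested 13003, 12257 and 12223 genes. CPM is scaled to 1e6 CDS counts of a library. Ratios were tested by exact permutation. Copies were found with blastn 2.17.0. The tests were tried on simulated data. Alternatives were RLE, plain totals, totals without the mitochondrial genome, no filter, the likelihood ratio test, DESeq2 1.42.0, only the groups compared, another transcript, the CDS length trend removed (lowess span 0.3), replicate or culture blocks, both ligases' inputs, left-out libraries and, chosen after seeing the data, the chromosome 1 copies added and, for ratios, the length trend removed and same-numbered pairs. The members and lists were chosen with earlier results of these data known. The text names the 6 genes, Eif4g2, Dlg4, the 5 genes outside the mitochondrial genome most like the 6, and, where a list is described, those of smallest p among the higher and among the lower.

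Pairing comes from the methods, by which input and pulldown are fractions of 1 lysate. Deviations of input and pulldown of 1 culture from their group means correlated at r = 0.188 to 0.515 over genes in the 12 KCl cultures. The r was -0.117 to 0.0433 in the 3 DHPG cultures and 0.00286 to 0.0161 in the 4 siRNA cultures. With 2 replicates per siRNA group, both cultures of a condition give the same r by construction. In the DHPG and siRNA experiments, pairing by number thus rests on labels and methods, and these r values do not show it. Same-numbered libraries of other cultures in the KCl experiment had r from -0.199 to 0.538. No 2 replicate libraries agreed within sampling noise.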

Additional observations from a re-analysis of the deposited data

Results flagged for a closer look

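With siRNA against eIF4G2, the difference between KCl-treated and resting neurons in pulldown over input passed the test of the difference itself for mt-Cytb (log2 -0.40) and mt-Co3 (log2 -0.48), with 2 libraries per group. Each call was lost when any 1 of 6 of the 8 libraries was left out (edgeR adjusted p from 0.0642 to 0.337), and that of mt-Co3 also with the length trend removed (edgeR adjusted p = 0.0979). mt-Rnr1 and mt-Rnr2, which lie outside the CDS counts that were compared, were higher in pulldowns than in inputs, with median log2 differences of 2.17 and 1.55 over 19 cultures.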

How the results depend on the processing

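The culture as a block, as a replicate block within each culture, raised the count of called genes among the 6 from 1 to 5 in resting TurboID-PSD95 neurons and from 0 to 6 in TurboID-PSD95 with KCl, resting Pan-TurboID and Pan-TurboID with KCl. The replicate number as a block gave 2 in resting TurboID-PSD95 neurons and changed no other count. In that comparison RLE, plain totals, totals without the mitochondrial genome and the transcript with the highest count gave 2. The likelihood ratio test, DESeq2 (15.7% of all genes higher) and the mean of both ligases' inputs gave 3, and no filter gave 0. For the settings other than DESeq2 the share of all genes called is not given here. Their counts therefore show how calls moved and not whether they stand above that share. Fitting only the groups compared gave 1, mt-Atp8 lower, in resting Pan-TurboID. The share of all genes lower in that fit is not given here. With the length trend removed in the fit of all groups, mt-Atp8 stood at 0.22 in this comparison. For KCl against rest in Pan-TurboID inputs, the likelihood ratio test gave 2 and DESeq2 gave 3. For KCl minus rest with siRNA, the likelihood ratio test and removal of the length trend gave 1 in place of 2. In TurboID-PSD95 with KCl, pulldown over input fell to -0.22 for mt-Co2 over the alternatives. For KCl minus rest with TurboID-PSD95, the lowest values of the 5 longer genes ran from -1.27 (mt-Co2) to -0.73 (mt-Co1). The highest ran from -0.36 (mt-Co3) to -0.01 (mt-Cytb). The cause of these changes was not tested, beyond the libraries and genes each setting holds.

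Leaving out each replicate, the counts were 0 to 0 in the comparisons of both ligases, 6 to 6 with DHPG, 5 to 6 with siRNA (6 to 6 for KCl against rest in inputs) and 0 to 3 for KCl minus rest with siRNA. Leaving out a number, the log2 ratio differences between pulldown and input ran from -1.73 to -1.42 (mt-Atp8 to mt-Atp6), -0.38 to -0.20 (mt-Co2 to mt-Co1), -0.26 to -0.12 (mt-Co3 to mt-Co1) and -0.35 to -0.27 (mt-Cytb to mt-Co1). For KCl against rest they ran from -0.89 to -0.29 in inputs and -0.65 to -0.14 in pulldowns (mt-Atp8), -0.19 to -0.03 and -0.47 to 0.0834 (mt-Co2), 0.32 to 0.39 and 0.17 to 0.22 (mt-Co3) and 0.12 to 0.17 and -0.00465 to 0.16 (mt-Cytb). Relabellings without a number cannot reach the threshold for KCl against rest, nor can tests of 1 ligase alone (6 cultures). The pulldown differences were then -1.60 and -1.61 (mt-Atp8), -0.34 and -0.30 (mt-Co2), -0.14 and -0.20 (mt-Co3) and -0.28 and -0.33 (mt-Cytb) for TurboID-PSD95 and Pan-TurboID. mt-Co3 to mt-Co1 with KCl in inputs was 0.22 and 0.47, and mt-Co2 to mt-Co1 with KCl in Pan-TurboID was 0.0868 in inputs and 0.13 in pulldowns. With the copies added, mt-Co3 to mt-Co1 was -0.13 for the pulldown and 0.30 for KCl in inputs. With the length trend removed, the pulldown differences turned to 0.25 (mt-Co2 to mt-Co1) and 0.29 (mt-Co3 to mt-Co1), and mt-Co3 to mt-Co1 with KCl was 0.15 in inputs and -0.0194 in pulldowns. The replicate block left it at 0.35 in inputs without passing. mt-Atp8 with DHPG reversed to 1.16 when the length trend was removed. Of 1566 alternative values of single genes, 1455 kept their direction and side of the threshold. Depth limits mt-Atp8 most, with as few as 25 counts in a library.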
